A study of Mus musculus with 24 samples.

Results

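The mesenchymal fraction of the lung was compared between irradiated and sham-irradiated mice, 8 of the 24 libraries of the series. Female Balb/c mice, 8 weeks old, received 13 Gy to the lungs and a control IgG antibody (irradiated, n = 4), or sham irradiation and the same IgG (sham, n = 4). Another 4 irradiated mice received daily anti-Ly6G in place of the IgG, to deplete neutrophils. These depleted libraries shared the estimate of spread in the fit. Lungs were collected 7 days after irradiation and digested, and the cells were sorted as CD45-CD31-Ter119-EpCAM- by the cell type label, that is, without markers of leukocytes, endothelium, red cells and epithelium. The protocol entry writes CD45 where CD31 would stand. Mesenchyme was therefore what the gate left, and no marker was used to select it. Ribosomal RNA was removed before 1 library was made per sample, and the study lists 4 mice per group. Values are normalised counts, gene counts divided by a size factor per library. Of 48795 genes, 16624 reached a value of 10 in 4 or more of the 12 mesenchymal libraries and were tested. Nothing in the labels says whether libraries of 1 group share a sort or day, so p values measure the spread between these mice.

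Ionising radiation breaks DNA, and the kinases that sense the breaks stabilise the transcription factor p53. p53 then induces genes that halt the cell cycle, genes that can commit a cell to death, and genes of metabolism and repair, together with Mdm2, which ends the response by degrading p53. Lung mesenchyme holds alveolar and adventitial fibroblasts, smooth muscle, pericytes and mesothelium. These cells build the matrix, make growth factors for the epithelium and release chemokines and complement, and damaged fibroblasts can enter senescence, a lasting arrest with secretion of inflammatory factors.

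The sorted libraries carried fibroblast genes at high level. Col1a1, the main fibrillar collagen chain, had 52309.8, 30056, 32992 and 23946 in irradiated mice, against 29776, 32648, 35903 and 41563 in sham mice. Pdgfra, a growth factor receptor of lung fibroblasts, had 15190.3, 16637, 18989 and 18318 in irradiated mice, against 21580.3, 19355, 23532 and 26969 in sham mice. Epcam, by contrast, had at most 23.9 in irradiated mice and at most 18.3 in sham mice. Genes of the cells that the gate removes were present at lower levels. Ptprc, which codes for CD45, had 273, 563, 316 and 266 in irradiated mice, against 210.0, 314, 139 and 107 in sham mice, and Pecam1, which codes for CD31, had 618, 779.6, 432 and 516 in irradiated mice, against 300.2, 465, 245 and 157 in sham mice. The groups overlapped for both. The summed level of 15 leukocyte markers was 1907, 3345, 1877 and 1584 in irradiated mice, against 1070.0, 1589.6, 779 and 585 in sham mice, and replicate 2 was the highest of each group. In bulk RNA, fewer cells of a type and less RNA per cell cannot be told apart.

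Recovered reads per library numbered 7366672 to 8989716 in irradiated mice and 8951233 to 11408083 in sham mice (difference of means, exact two-sided permutation p = 0.0571, where 70 assignments allow 0.0286 at the smallest). A count of 0 allows up to 3 reads, a normalised count of 3.05 to 3.66 in irradiated and 2.48 to 3.04 in sham libraries. With limma and Benjamini-Hochberg adjustment, 631 of 16624 genes differed at an adjusted p under 0.05. This is 3.8% of genes, with 439 (2.64%) higher and 192 (1.15%) lower in irradiated mice. At least 2-fold changes numbered 217 higher and 7 lower, and the median log2 change was 0.99 among genes called higher and -0.415 among genes called lower. The 4 irradiated and the 4 sham libraries did not overlap for 11.8% of genes. The number called depended on single libraries. It was 184 without irradiated replicate 2, 193 without sham replicate 3, 349 without sham replicate 1, 366 without sham replicate 4 and 1073 without sham replicate 2. With the mean log2 level of the leukocyte markers as a covariate in the fit it was 61, of which 60 are among the 631. Of the genes described below, those that kept their call under that covariate were Cdkn1a, Mdm2, Ccng1, Sesn2, Zmat3, Gtse1, Bax, Eda2r, Aen, Phlda3, Gdf15, Ass1, Dglucy, Ephx1, Dcxr, Ckap2, Psrc1, Zfp365, Per2, Tef, Ccl7, Igfbp4, C3, C4b, Cfb, Gm10800, Gm10718, Gm26870, Gm42047 and Ces2e. Every other call named below was lost under it. The covariate itself partly follows the treatment, as 15 of 15 leukocyte markers had a positive change (median log2 1.09). A call lost under it therefore cannot be assigned to leukocytes. Replicates whose omission ended a call are named below with that call, and a call between irradiated and sham mesenchyme given without such a replicate held when any 1 of the 12 libraries was left out. Some group members are named because of their values and not by a rule.

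**Figure D1:**
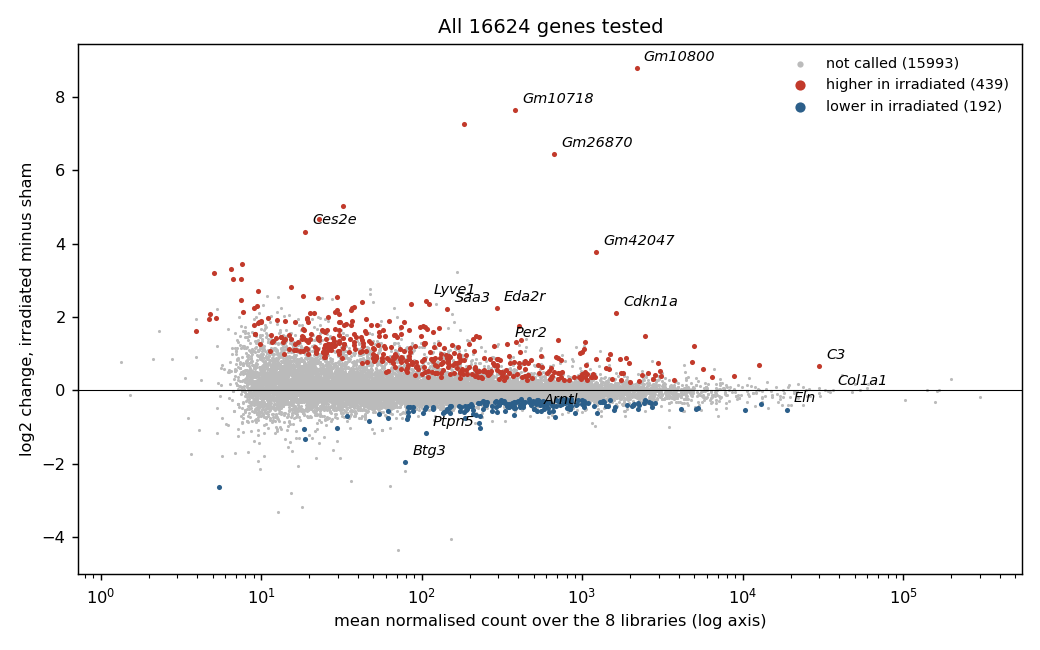
Log2 change (irradiated minus sham) of each of the 16624 genes tested against its mean normalised count over the 8 libraries (log axis), with 439 genes called higher in red, 192 called lower in blue and the rest in grey. Calls of at least 2-fold lie mostly above 0 (217 higher and 7 lower). The highest points are predicted gene models, with Gm10800 the highest at 8.79.

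Genes that p53 induces to arrest the cell and to restrain p53 itself were higher after irradiation. Of 14 measured members 8 rose and 0 fell, with a median log2 change of 0.82, where all genes tested had a median of -0.00749. Cdkn1a, the gene of p21, an inhibitor of cyclin-dependent kinases (ENSMUSG00000023067, chr17:29090976-29100727 on GRCm38), had 2335, 3051, 2526 and 2722 in irradiated mice, against 571, 761, 598 and 541 in sham mice. Every irradiated library lay above every sham library. Its log2 change was 2.11 ± 0.121 (SE), with an adjusted p of 2.1e-07 (limma). Mdm2, the ligase that degrades p53 (ENSMUSG00000020184, chr10:117688875-117710758), had 796, 1043, 812 and 966 in irradiated mice, against 495, 488, 476 and 464 in sham mice. The sham libraries were close together and the irradiated ones all lay above them (log2 0.90 ± 0.0863, adjusted p = 2.2e-05). Sesn2, which restrains growth signalling under stress, had 297, 345, 320.4 and 383 in irradiated mice, against 116, 136, 116 and 119.7 in sham mice, again without overlap (log2 1.45 ± 0.115, adjusted p = 4.05e-06).

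Ccng1, a cyclin that acts with Mdm2 (log2 0.83 ± 0.115), and Zmat3, an RNA-binding protein gene (0.82 ± 0.0835), rose by less. The other members that rose were Gtse1, which moves p53 out of the nucleus (2.58 ± 0.296), the death gene Pmaip1 (1.67 ± 0.234) and Trp53inp1 (1.12 ± 0.206, a call that ended without irradiated replicate 2). Gtse1 was a low gene, with 33.0, 39.8, 24.4 and 29.3 in irradiated mice, against 6.09, 7.45, 3.03 and 2.49 in sham mice. Btg2, an antiproliferative p53 target that was abundant in both groups, had 18568 ± 2742 in irradiated mice and 20863 ± 846 in sham mice (SD, n = 4 each; adjusted p = 0.34). Plk2, a kinase induced by p53 in other settings, had 924 ± 116 in irradiated mice and 891 ± 56.0 in sham mice (adjusted p = 0.867). In this group of genes 6 calls remained with the leukocyte covariate.

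Of 32 p53 targets called in the 3 p53 groups, 28 had a promoter in the RefSeq table (GRCm38.p6), a window of 250 bases before to 50 after the gene start, and 10 of these held the decamer half-site that p53 binds, on either strand. Among targets not called, 4 of 16 held it, and among all genes with a promoter 9.55% did. A match is a description of the letters and not a site shown to be bound. The windows of Cdkn1a and Bax are shown whole, and 60 bases around the match for Mdm2, Ccng1 and Polk, with matches in capitals. Their positions are chr17:29090729-29091028, plus strand for Cdkn1a, chr7:45466849-45467148, minus strand for Bax, chr10:117710910-117710969, minus strand for Mdm2, chr11:40755437-40755496, minus strand for Ccng1 and chr13:96519378-96519437, minus strand for Polk.
Cdkn1a: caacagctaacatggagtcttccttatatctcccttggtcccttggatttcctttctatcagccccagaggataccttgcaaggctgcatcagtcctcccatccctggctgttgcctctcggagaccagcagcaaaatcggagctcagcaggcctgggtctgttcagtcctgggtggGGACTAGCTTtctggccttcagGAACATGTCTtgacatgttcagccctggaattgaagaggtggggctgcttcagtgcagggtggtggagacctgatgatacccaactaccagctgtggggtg
Bax: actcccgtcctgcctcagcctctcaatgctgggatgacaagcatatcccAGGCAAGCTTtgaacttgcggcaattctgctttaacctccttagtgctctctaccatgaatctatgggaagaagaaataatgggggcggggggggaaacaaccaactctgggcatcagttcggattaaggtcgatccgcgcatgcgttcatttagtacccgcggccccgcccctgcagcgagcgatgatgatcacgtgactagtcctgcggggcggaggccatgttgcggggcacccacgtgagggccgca
Mdm2: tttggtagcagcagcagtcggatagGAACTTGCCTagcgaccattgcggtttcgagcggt
Ccng1: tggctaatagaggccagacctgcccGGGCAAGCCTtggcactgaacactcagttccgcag
Polk: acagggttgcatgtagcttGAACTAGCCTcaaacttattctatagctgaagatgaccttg
The Cdkn1a window held 2 matches and the others 1 each.

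p53 targets with roles in death and survival signals rose in 12 of 15 members and fell in 0 (median log2 0.92). Eda2r, which codes for a TNF-type receptor that binds ectodysplasin (ENSMUSG00000034457, chrX:97333840-97377216), had 425, 542, 459.7 and 515 in irradiated mice, against 108, 98.5, 99.9 and 101 in sham mice. The sham values were close together and the irradiated ones lay far above them (log2 2.24 ± 0.0929, adjusted p = 1.39e-09). Aen, a nuclease of apoptotic cells, had 564, 699, 574 and 651 in irradiated mice, against 201, 166, 179.7 and 192 in sham mice (log2 1.75 ± 0.0928, adjusted p = 2.92e-08). Bax, which permeabilises mitochondria, had 242, 227, 189 and 238 in irradiated mice, against 126, 108, 111 and 125 in sham mice. Its groups did not overlap (log2 0.92 ± 0.13, adjusted p = 0.000887). Phlda3, which restrains Akt, had 463, 513, 490.3 and 433 in irradiated mice, against 276, 248, 274 and 305 in sham mice, and these groups did not overlap either (log2 0.78 ± 0.0789, adjusted p = 3.37e-05).

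Death genes at lower levels rose too. Pidd1, a scaffold of the caspase complex named for it, had 28.9, 34.1, 19.3 and 31.7 in irradiated mice, against 9.13, 10.8, 6.06 and 7.48 in sham mice (log2 1.65 ± 0.251). The BH3-only gene Bbc3 had a log2 change of 0.76 ± 0.141, the death receptor Tnfrsf10b 1.64 ± 0.277 and the apoptosome gene Apaf1 0.51 ± 0.0868. Fas, another death receptor, had 187, 179.8, 181 and 185 in irradiated mice, against 148, 146, 112 and 129 in sham mice. Its groups did not overlap (log2 0.46 ± 0.0997, adjusted p = 0.0209), and the call ended without irradiated replicate 2 or sham replicate 3. Ei24 rose by 0.36 ± 0.0801, a call that ended without irradiated replicate 1 or 2 or sham replicate 3. Siva1 did not pass the test (log2 0.38 ± 0.187, adjusted p = 0.264). With the leukocyte covariate 4 calls remained in this group.

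Of 29 p53 targets of metabolism, repair and other roles, 15 rose and 0 fell (median log2 0.64). Ephx1, which hydrolyses epoxides, had 1544, 1658, 1379 and 1343 in irradiated mice, against 619, 595, 526 and 651 in sham mice. The groups did not overlap (log2 1.31 ± 0.0901, adjusted p = 6.95e-07). Dglucy, a mitochondrial enzyme of glutamate metabolism, had 241, 354, 229.9 and 287 in irradiated mice, against 99.4, 126, 113 and 121 in sham mice (log2 1.25 ± 0.121, adjusted p = 2.22e-05). Dcxr, a carbonyl reductase, rose by 1.21 ± 0.132. Gdf15, a stress cytokine, had 84.6, 70.6, 70.2 and 63.4 in irradiated mice, against 20.3, 18.2, 21.2 and 13.3 in sham mice, again without overlap (log2 1.94 ± 0.174, adjusted p = 1.12e-05). Among repair genes, the translesion polymerase gene Polk had 201, 214, 173 and 159 in irradiated mice, against 104, 112, 105 and 96.5 in sham mice (log2 0.83 ± 0.11, adjusted p = 0.000534). Zfp365, which maintains common fragile sites, rose by 1.26 ± 0.139.

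Psrc1 and Ckap2, which code for spindle and microtubule proteins, were low in sham mice. Psrc1 had 57.8, 58.0, 51.9 and 68.3 in irradiated mice, against 5.07, 12.4, 14.1 and 22.5 in sham mice (log2 2.20 ± 0.297). Ckap2 had 39.2, 56.9, 25.4 and 36.6 in irradiated mice, against 6.09, 9.1, 4.04 and 4.99 in sham mice (log2 2.52 ± 0.284). Neither gene's groups overlapped. Sulf2, which edits heparan sulphate, rose by 0.87 ± 0.136. Ass1, which makes argininosuccinate on the way to arginine, had 101, 121, 92.6 and 80.5 in irradiated mice, against 17.2, 33.1, 22.2 and 32.4 in sham mice (log2 1.90 ± 0.198), without overlap. Rps27l rose by 0.50 ± 0.0879, and Rps27l shares sequence with the ribosomal gene Rps27, so its reads are less certain. The calls for Ano3 (0.99 ± 0.205, without irradiated replicate 2 or sham replicate 3) and Pltp (0.37 ± 0.0943, without any 1 library other than irradiated replicate 4, sham replicate 2 or depleted replicate 2, 3 or 4) ended with single libraries. With the leukocyte covariate 8 calls remained.

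**Figure D2:**
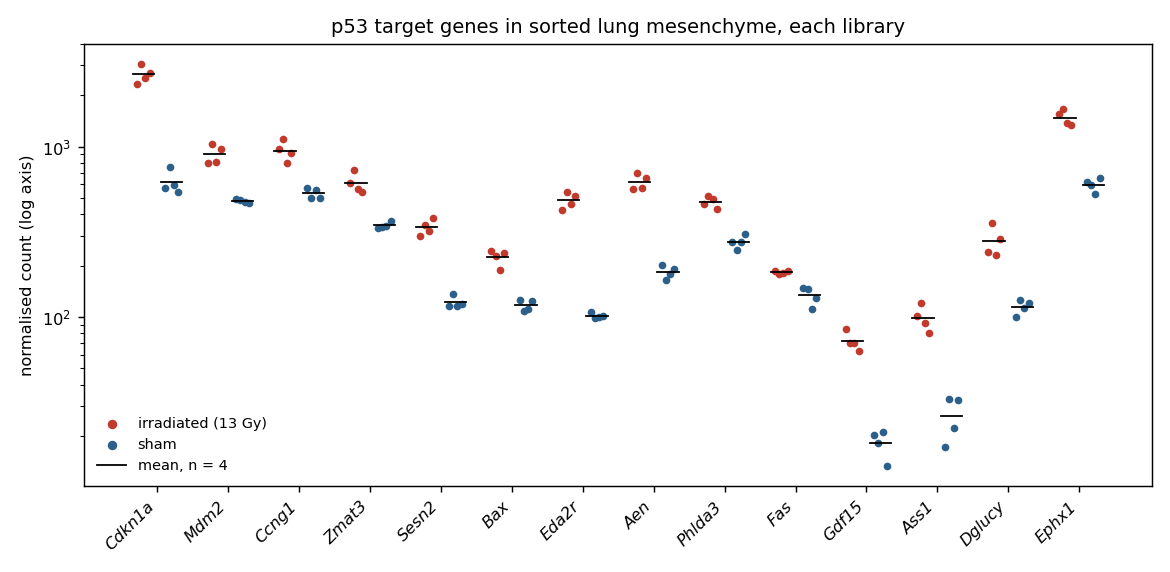
Normalised counts (log axis) of 14 p53 target genes in each of the 4 irradiated (red) and 4 sham (blue) libraries, with the mean as a bar. For each of the 14 genes the lowest irradiated library lies above the highest sham library.

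The size of the response differed between mesenchyme and epithelium for several p53 targets, tested as the difference of the 2 responses in 1 fit of the irradiated, depleted and sham libraries of both compartments (15092 genes, of which 0.629% differed). The epithelial cells are the EpCAM+ cells of mice treated alike. This count moved from 95 genes to 48 without epithelial irradiated replicate 2, 50 without epithelial irradiated replicate 4, epithelial sham replicate 3 or mesenchymal irradiated replicate 2, 51 without mesenchymal sham replicate 3, 58 without epithelial sham replicate 4, 173 without mesenchymal irradiated replicate 3 and 334 without mesenchymal sham replicate 2. Each table has its own scale, so log2 changes are compared and not levels. Phlda3 rose by 0.78 ± 0.0789 in mesenchyme and by 3.62 ± 0.108 in epithelium, a difference of -2.84 ± 0.152 (adjusted p = 9.23e-12). Dglucy rose by 1.25 ± 0.121 in mesenchyme and 3.09 ± 0.131 in epithelium, a difference of -1.84 ± 0.186 (adjusted p = 3.64e-06). Ccng1 rose by 0.83 ± 0.115 in mesenchyme and 2.18 ± 0.122 in epithelium, a difference of -1.35 ± 0.173 (adjusted p = 0.000288). Bax rose by 0.92 ± 0.13 in mesenchyme and 1.71 ± 0.13 in epithelium, a difference of -0.79 ± 0.183 (adjusted p = 0.0438). These responses were smaller in mesenchyme. In the other direction, Ckap2 changed by 2.52 ± 0.284 in mesenchyme and 0.46 ± 0.256 in epithelium, a difference of 2.06 ± 0.362 (adjusted p = 0.0079). Ass1 rose by 1.90 ± 0.198 in mesenchyme and 0.89 ± 0.166 in epithelium, a difference of 1.01 ± 0.235 (adjusted p = 0.0427). The differences for Phlda3, Dglucy, Ccng1 and Ckap2 kept their call when any 1 of the 16 irradiated and sham libraries was left out. Those for Bax and Ass1 each ended in 12 of the 16 cases. For Bax the exceptions were epithelial irradiated replicate 1 and mesenchymal irradiated replicates 1 and 4 and sham replicate 2, and for Ass1 they were mesenchymal irradiated replicates 3 and 4 and sham replicates 2 and 4. For Cdkn1a the difference was -0.55 ± 0.227 (adjusted p = 0.291) and for Mdm2 0.26 ± 0.126 (adjusted p = 0.378). Btg2 was not called in mesenchyme (log2 -0.18 ± 0.102) but rose by 0.35 ± 0.0837 in epithelium (adjusted p = 0.0153). Its difference was -0.53 ± 0.118 (adjusted p = 0.0358), a call that ended in 10 of the 16 cases. These were epithelial irradiated replicates 2 and 4, every epithelial sham replicate, mesenchymal irradiated replicates 1 and 2 and mesenchymal sham replicates 3 and 4.

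Genes of the cell cycle and of DNA repair mostly did not pass the test. Of 28 cell cycle genes 1 rose, Ccnd1, the cyclin that drives entry into the cycle, and 0 fell (median log2 0.10). Ccnd1 had 216, 212, 164 and 167 in irradiated mice, against 94.3, 96.0, 68.6 and 83.2 in sham mice. The groups did not overlap (log2 1.14 ± 0.169, adjusted p = 0.00144). With the leukocyte covariate its log2 change was 0.70, its call ended and the cell cycle count was 0. The proliferation marker Mki67 had 106, 106, 55.9 and 59.8 in irradiated mice, against 42.6, 71.2, 43.4 and 35.8 in sham mice and overlapped (log2 0.74 ± 0.284, adjusted p = 0.157). Among 6 inhibitors of cyclin-dependent kinases Cdkn1a rose, while Cdkn1b had a log2 change of -0.16 ± 0.0722 (adjusted p = 0.22) and Cdkn1c of -0.04 ± 0.0988 (adjusted p = 0.879). By edgeR, DESeq2, library weights, a pseudocount of 8 or omission of both second replicates, and without sham replicate 2 or depleted replicate 4, 1 of the 6 was called lower. Of 21 genes that sense and repair DNA breaks 1 fell, Atr, a kinase of the replication checkpoint, with 337, 302, 315 and 327 in irradiated mice, against 405, 405, 456 and 374 in sham mice. The Atr groups did not overlap (log2 -0.35 ± 0.0826, adjusted p = 0.0296), and the call ended without irradiated replicate 2 or 3 or sham replicate 1 or 3. Prkdc, a kinase of end joining, had 619 ± 21.7 in irradiated mice and 633 ± 14.6 in sham mice (adjusted p = 0.804).

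The circadian clock genes that were called split by role. The clock is a feedback loop in which Arntl and Clock activate the Per, Cry and Nr1d genes, whose products repress the loop. Tef, Hlf, Dbp and Bhlhe41 carry its output. Of 12 core genes tested, the activators Arntl, Clock and Npas2 fell and the repressors Per2, Per3 and Nr1d2 rose. Arntl had 424, 422, 421 and 399 in irradiated mice, against 515, 608, 739 and 649 in sham mice. The irradiated libraries were close together and below all sham libraries (log2 -0.58 ± 0.112, adjusted p = 0.0114). Clock had 1189, 1237, 1266 and 1218 in irradiated mice, against 1712, 1651, 1784 and 1543 in sham mice, without overlap (log2 -0.44 ± 0.0775, adjusted p = 0.00525). Npas2, a partner of Arntl, had 337, 274, 332 and 217 in irradiated mice, against 339.8, 550.3, 503 and 461 in sham mice. Its groups came near each other (log2 -0.67 ± 0.17, adjusted p = 0.0471), and the call ended without any 1 library other than sham replicate 1 or depleted replicate 4.

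Per2 had 406, 545, 469 and 500.1 in irradiated mice, against 259, 168, 186 and 199 in sham mice. Every irradiated library lay above the sham libraries (log2 1.25 ± 0.132, adjusted p = 8.61e-05). Per3 had 503, 598, 605 and 671 in irradiated mice, against 366, 171, 207 and 216 in sham mice, with sham replicate 1 above the other sham libraries (log2 1.36 ± 0.201, adjusted p = 0.00419). Nr1d2 overlapped between groups through the same sham library (log2 0.69 ± 0.154, adjusted p = 0.0301, lost without irradiated replicate 2, 3 or 4 or sham replicate 3 or 4). Nr1d1 had 1516, 1513, 1536 and 1588 in irradiated mice, against 1218, 837, 646 and 1357 in sham mice and did not pass (log2 0.66 ± 0.223, adjusted p = 0.122). Per1, Cry1 and Rora had log2 changes of 0.19 ± 0.174, -0.22 ± 0.155 and -0.06 ± 0.0877, and adjusted p values of 0.575, 0.452 and 0.759.

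Of 6 output factors 3 rose and 0 fell (median log2 0.77). Tef had 1173, 1272, 1279 and 1464 in irradiated mice, against 855, 499.8, 574 and 665 in sham mice, without overlap (log2 1.02 ± 0.132, adjusted p = 0.000769). Hlf rose by 0.68 ± 0.159 (ended without any 1 library other than sham replicate 1, 2 or 4 or depleted replicate 3 or 4) and Bhlhe41 by 0.86 ± 0.186 (ended without irradiated replicate 1 or 2 or sham replicate 3). Dbp had 264, 189, 234 and 285 in irradiated mice, against 143, 41.4, 36.3 and 86.5 in sham mice. Its groups did not overlap, but the sham spread was wide and it did not pass (log2 1.85 ± 0.455, adjusted p = 0.0521). With the leukocyte covariate 2 clock calls remained, Per2 and Tef. The time of day of collection is not given in the sources used here, and its part in these values was not tested. In epithelium the log2 changes were -0.91 ± 0.137 for Arntl, 1.12 ± 0.164 for Per2 and 1.16 ± 0.178 for Tef, and the differences between compartments had adjusted p values of 0.488, 0.86 and 0.862.

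**Figure D3:**
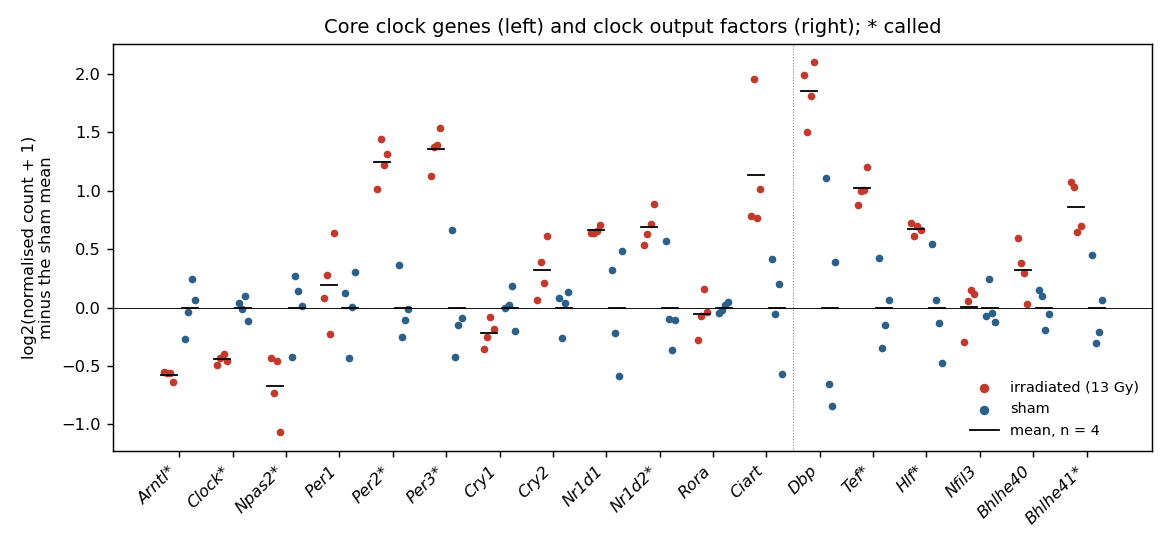
Log2(normalised count + 1) minus the sham mean for 12 core clock genes (left of the dotted line) and 6 output factors (right), in the 4 irradiated (red) and 4 sham (blue) libraries, with means as bars and called genes starred. Arntl, Clock and Npas2 lie below 0 in irradiated mice, and Per2, Per3, Nr1d2, Tef, Hlf and Bhlhe41 lie above.

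Clock proteins bind the E-box CACGTG, and the Nr1d and Ror receptors bind AGGTCA half-sites. Both motifs were searched on both strands of the RefSeq promoter windows of the 18 tested clock genes. Of 8 called genes with a promoter 2 held the E-box, and 3 of 8 genes not called did, against 8.09% of all genes. AGGTCA stood in 3 of 8 called genes and 2 of 8 genes not called, against 18.1% of all genes. Shown are the Tef window, where the E-box is in capitals (chr15:81802423-81802722, plus strand), and 60 bases around the matches in Bhlhe41 (E-box, chr6:145865541-145865600, minus strand), Clock (half-site, chr5:76303589-76303648, minus strand) and Nr1d2 (half-site, chr14:18239151-18239210, minus strand).
Tef: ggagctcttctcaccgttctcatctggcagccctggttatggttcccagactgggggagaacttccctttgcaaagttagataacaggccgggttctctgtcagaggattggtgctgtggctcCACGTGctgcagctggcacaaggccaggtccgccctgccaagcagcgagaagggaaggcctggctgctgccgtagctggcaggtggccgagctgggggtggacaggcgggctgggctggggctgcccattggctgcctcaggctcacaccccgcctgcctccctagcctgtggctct
Bhlhe41: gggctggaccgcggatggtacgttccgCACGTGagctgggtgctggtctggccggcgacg
Clock: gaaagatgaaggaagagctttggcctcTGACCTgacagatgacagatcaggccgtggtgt
Nr1d2: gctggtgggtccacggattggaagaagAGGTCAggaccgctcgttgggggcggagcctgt
In Clock the half-site lies on the opposite strand and reads as its reverse complement.

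Secreted inflammatory factors were higher in part. Of 20 chemokines 6 rose and 0 fell (median log2 0.63). Ccl7, which draws monocytes, had 176, 172, 169 and 222 in irradiated mice, against 107, 113, 85.8 and 117 in sham mice (log2 0.80 ± 0.134, adjusted p = 0.00415). Ccl11, which draws eosinophils, had 548, 532, 467 and 488 in irradiated mice, against 314, 279, 284 and 345 in sham mice (log2 0.74 ± 0.132, adjusted p = 0.0083). Ccl9 had 20.6, 70.6, 22.4 and 23.2 in irradiated mice, against 5.07, 7.45, 7.07 and 4.99 in sham mice, with irradiated replicate 2 far above the others (log2 2.12 ± 0.365). The groups of these 3 genes did not overlap. The calls for the neutrophil chemokines Cxcl1 (0.48 ± 0.121, ended without any 1 library other than sham replicate 1 or depleted replicate 2 or 4) and Cxcl2 (1.13 ± 0.25, ended without irradiated replicate 2 or 4 or sham replicate 1, 3 or 4) and for Cxcl16 (0.33 ± 0.0875, ended without any 1 library other than sham replicate 2 or depleted replicate 3) rested on single libraries. Ccl2 had 560.1 ± 124 in irradiated mice and 506 ± 107 in sham mice (adjusted p = 0.65), and Cxcl12 had a log2 change of 0.31 ± 0.14 (adjusted p = 0.224). The chemokine count was 3 without irradiated replicate 2 or 4 or sham replicate 3 or 4, and 1 with the leukocyte covariate.

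Among 24 cytokines, receptors and adhesion molecules 3 rose and 0 fell (median log2 0.29). Icam1, to which leukocytes bind, had 3247, 3702, 4577 and 3313 in irradiated mice, against 2378, 2569, 1856 and 1985 in sham mice. Its groups did not overlap (log2 0.75 ± 0.115, adjusted p = 0.00208). Csf1, the growth factor of macrophages, had 1507, 1342, 1324 and 1264 in irradiated mice, against 1029, 1091, 1090.3 and 1052 in sham mice (log2 0.35 ± 0.0706, adjusted p = 0.0141). Tnfrsf1a, the main TNF receptor, rose by 0.35 ± 0.0763 (ended without irradiated replicate 2 or 3 or sham replicate 1 or 3). Il6 had 1897, 1874, 2103 and 1749 in irradiated mice, against 1672, 1576, 1341 and 1262 in sham mice and did not pass (log2 0.39 ± 0.115, adjusted p = 0.0709). Leaving out sham replicate 2 gave 5 calls, as did leaving out depleted replicate 4, and the leukocyte covariate left 0.

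Of 17 NF-kB subunits and feedback genes 3 rose and 0 fell (median log2 0.28). Their changes were small, 0.38 ± 0.0967 for the subunit Relb, 0.28 ± 0.0719 for the inhibitor Nfkbia and 0.48 ± 0.122 for the inhibitor Nfkbie. The calls ended without irradiated replicate 2, 3 or 4 or sham replicate 1, 3 or 4 for Relb, without any 1 library other than sham replicate 1 or 2 or depleted replicate 3 or 4 for Nfkbia and without any 1 library other than irradiated replicate 4, sham replicate 2 or depleted replicate 1, 3 or 4 for Nfkbie. The count was 0 without irradiated replicate 2 or sham replicate 3 or 4, 1 on leaving out irradiated replicate 1, 3 or 4, sham replicate 1 or depleted replicate 2, and 7 when sham replicate 2 was left out. Of 15 called genes of the inflammatory groups with a promoter, 8 held the kappaB decamer, against 12 of 58 genes not called and 5.14% of all genes. The 8 were Ccl9, Cxcl1, Cxcl2, Csf1, Nfkbia, Nfkbie, C1qc and Serpina3g.

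Senescence-associated secreted factors rose in 10 of 22 members and fell in 1 (median log2 0.43). Besides chemokines, Gdf15 and Csf1, they included Igfbp4, which binds insulin-like growth factors, with 7869, 6928, 6414 and 5896 in irradiated mice, against 4224, 4149.7, 4737 and 4830.4 in sham mice. The groups did not overlap (log2 0.59 ± 0.103, adjusted p = 0.00525). Timp1, an inhibitor of matrix proteases, had 353, 462, 401 and 334 in irradiated mice, against 205, 266, 178 and 203 in sham mice (log2 0.86 ± 0.144, adjusted p = 0.00533). The protease gene Plau had 158 ± 32.6 in irradiated mice and 85.1 ± 11.4 in sham mice (log2 0.87 ± 0.161, adjusted p = 0.00797). Its receptor Plaur rose by 0.98 ± 0.205 (ended without irradiated replicate 1 or 2 or sham replicate 3). Igfbp3 fell by 0.52 on the log2 scale (SE 0.13), a call that ended without any 1 library other than irradiated replicate 3, sham replicate 2 or depleted replicate 1 or 4. The number higher was 6 without irradiated replicate 2 or sham replicate 3, and 3 with the leukocyte covariate.

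Complement and acute-phase genes were higher. Of 24 complement genes 6 rose and 0 fell (median log2 0.38). Cfb, a protease of the alternative pathway (ENSMUSG00000090231, chr17:34856374-34862518), had 1363, 1559, 1171 and 1337 in irradiated mice, against 594, 636, 638 and 745 in sham mice. The groups did not overlap (log2 1.05 ± 0.0982, adjusted p = 1.65e-05). C2, its counterpart in the classical pathway, had 778, 759, 868 and 881 in irradiated mice, against 609.6, 635, 542 and 579 in sham mice (log2 0.47 ± 0.0786, adjusted p = 0.00393). C4b had 12942, 15378, 16556 and 17363 in irradiated mice, against 8936, 9339, 9392 and 10733 in sham mice, without overlap (log2 0.69 ± 0.14, adjusted p = 0.0149, ended without irradiated replicate 2 or sham replicate 3). C3, the component on which the pathways converge, rose by 0.65 ± 0.114. C1qc (1.83 ± 0.43) and the receptor C5ar1 (1.79 ± 0.452), genes of myeloid cells, also rose, calls that ended without irradiated replicate 1 or 2 or sham replicate 1, 3 or 4 for C1qc and any 1 library other than irradiated replicate 1, sham replicate 2 or depleted replicate 3 for C5ar1. The complement count was 3 without irradiated replicate 2 or sham replicate 3, and also 3 with the leukocyte covariate, where C3, C4b and Cfb remained.

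Of 10 acute-phase genes 4 rose and 0 fell (median log2 1.49). Serpina3n, a protease inhibitor, had 1809, 5162, 3158 and 4748 in irradiated mice, against 1092, 1207, 1214 and 1387 in sham mice. The irradiated libraries differed widely among themselves (log2 1.49 ± 0.346, adjusted p = 0.0455, ended without any 1 library other than irradiated replicate 1 or depleted replicate 2 or 4). Serpina3f had 26.8, 43.2, 40.7 and 37.8 in irradiated mice, against 16.2, 10.8, 12.1 and 7.48 in sham mice (log2 1.62 ± 0.253, adjusted p = 0.00246), and Serpina3g 97.0, 128, 93.6 and 91.5 in irradiated mice, against 32.5, 60.4, 30.3 and 29.1 in sham mice (log2 1.46 ± 0.268, adjusted p = 0.0116, ended without sham replicate 3). Of all 9 Serpina3 genes tested, a family taken up after its values were seen, 6 were called higher, 9 had a positive change and the median was 0.85. The paralogs are near-identical in sequence, so reads may be split among them. Saa3 rose by 2.21 ± 0.51 (ended without any 1 library other than irradiated replicate 1 or depleted replicate 4). Lcn2 had 42.3, 174, 42.7 and 109 in irradiated mice, against 29.4, 20.7, 15.1 and 16.6 in sham mice, with no overlap and no call (adjusted p = 0.078). The acute-phase count was 1 without sham replicate 3, 2 without any of irradiated replicate 2 or 4, sham replicate 1, 2 or 4 or depleted replicate 1, and 0 with the leukocyte covariate.

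Interferon and antigen presentation genes gave 3 calls in all. Of 30 interferon-stimulated genes 1 rose and 1 fell, 26 had a positive change and the median log2 change was 0.27 (11 at an unadjusted p under 0.05). Zbp1, a sensor of nucleic acids, had 59.8, 72.8, 58.0 and 51.2 in irradiated mice, against 26.4, 37.2, 16.2 and 25.8 in sham mice (log2 1.21 ± 0.209, adjusted p = 0.00499). Ifit2 had 419, 436, 428 and 434 in irradiated mice, against 506, 506, 497 and 501 in sham mice, with little spread and no overlap, yet the change was small (log2 -0.23 ± 0.0602, adjusted p = 0.0478), and the call ended without any 1 library other than depleted replicate 4. Among 19 antigen presentation genes 18 had a positive change (median 0.35, 8 at an unadjusted p under 0.05), and DESeq2 called 3. By limma Tap1, a peptide transporter, rose by 0.64 ± 0.114, and B2m had 2375 ± 241 in irradiated mice and 2443 ± 77.3 in sham mice (adjusted p = 0.776). Without sham replicate 2 the interferon group had 3 genes higher and the antigen presentation group 2, and the second group also had 2 without irradiated replicate 4. With the leukocyte covariate both groups had 0 calls, and the log2 change was 0.71 for Zbp1 and 0.35 for Tap1.

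Fibrillar collagens showed no call at this depth. Of 17 collagens 0 rose and 0 fell by limma, edgeR or DESeq2, 1 reached an unadjusted p under 0.05, and the median log2 change was 0.00. Col3a1 had 76343, 50829, 49172 and 43369 in irradiated mice, against 45908, 47589, 56912 and 64075 in sham mice, with irradiated replicate 1 above the rest (log2 0.01 ± 0.182, adjusted p = 0.976). Of 19 basement membrane genes 0 were called by limma or edgeR and 1 by DESeq2 (1 at an unadjusted p under 0.05 in limma, and 1 called without sham replicate 1), and Col4a1 had 12273 ± 876 in irradiated mice and 11491 ± 1019.5 in sham mice (adjusted p = 0.67). In the elastic fibre group of 21 genes Loxl4, a cross-linking enzyme, rose and Eln, elastin, fell. Loxl4 had 419, 361, 315 and 295 in irradiated mice, against 209, 245, 165 and 218 in sham mice (log2 0.73 ± 0.121, adjusted p = 0.00371), without overlap. Eln had 19773, 13814, 15112 and 12837 in irradiated mice, against 17543, 23224, 20986 and 27267 in sham mice. Irradiated replicate 1 lay within the sham range (log2 -0.53 ± 0.139, adjusted p = 0.0453), and the call ended without any 1 library other than irradiated replicate 1 or sham replicate 1.

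Of 22 matrix glycoproteins and proteoglycans Podn rose and Ogn fell. Podn had 1567, 1717, 1934 and 1586 in irradiated mice, against 1023, 1082, 1139 and 1204 in sham mice (log2 0.61 ± 0.106, adjusted p = 0.00512). Ogn had 3728, 4342, 4519 and 4252 in irradiated mice, against 6360.4, 5469.5, 6804 and 5255 in sham mice (log2 -0.50 ± 0.0974, adjusted p = 0.0115, ended without sham replicate 3). The groups of both did not overlap. Fn1, fibronectin, had 63358 ± 5600.0 in irradiated mice and 57343 ± 12894 in sham mice (adjusted p = 0.514). Of 18 metalloproteinases and their inhibitors 3 rose, Timp1, Mmp2 (0.40 ± 0.107, ended without any 1 library other than sham replicate 4 or depleted replicate 2, 3 or 4) and Mmp9 (1.64 ± 0.385, ended without irradiated replicate 1, 2 or 3 or sham replicate 1, 3 or 4). Mmp9 is a protease that neutrophils store. This count was 1 without irradiated replicate 1, 2 or 3 or sham replicate 1 or 3.

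Groups of signalling genes, both signals and their receptors and regulators, had 0 to 3 calls each. The share called was 13.0% for TGF-beta, 0.0% for niche growth factors and 3.57% for Wnt. It was 8.33% for BMP and Hedgehog and 12.5% for Notch, against 3.8% of all genes tested. Of 23 TGF-beta genes 3 rose and 0 fell, among them the corepressor Tgif1 (0.50 ± 0.0992, ended without irradiated replicate 2 or sham replicate 3) and the activin subunit Inhbb. Inhbb had 36.1, 41.0, 32.5 and 39.0 in irradiated mice, against 24.3, 13.2, 16.2 and 10.8 in sham mice (log2 1.21 ± 0.244, adjusted p = 0.0137, ended without irradiated replicate 2). The TGF-beta count was 0 without irradiated replicate 2, 1 without sham replicate 3 and 5 without sham replicate 2. Of 22 niche growth factors 0 were called by limma or edgeR and 3 by DESeq2, and 12 reached an unadjusted p under 0.05 in limma. Without sham replicate 2, 5 of them were called lower. Among them Vegfa had 2612 ± 266 in irradiated mice and 3174 ± 263 in sham mice (adjusted p = 0.147). Of 28 Wnt genes Rspo1, which amplifies Wnt signals, rose (0.84 ± 0.2, ended without irradiated replicate 1, 2 or 4 or sham replicate 3 or 4). In the BMP and Hedgehog group of 24, Bmp6 rose (0.61 ± 0.148, ended without irradiated replicate 1, 2 or 4 or sham replicate 1, 3 or 4) and Bmp5 fell, with 1638, 1605, 2121 and 1798 in irradiated mice, against 2466, 2255, 2319.9 and 2324 in sham mice (log2 -0.39 ± 0.101, ended without any 1 library other than irradiated replicate 3, sham replicate 2 or depleted replicate 3 or 4). Of 24 Notch genes the ligand Dll1 rose, with 60.9, 52.4, 38.7 and 37.8 in irradiated mice, against 21.3, 20.7, 15.1 and 11.6 in sham mice (log2 1.42 ± 0.243, adjusted p = 0.00488). Lfng (1.40 ± 0.323, ended without irradiated replicate 1 or 2 or sham replicate 1, 3 or 4) and Numbl (0.31 ± 0.0698, ended without irradiated replicate 3 or sham replicate 1 or 3) rose too. The Notch count was 1 without sham replicate 1 or 3 and 5 without sham replicate 2.

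Cholesterol synthesis genes were lower in part. Of 26 genes 5 fell and 0 rose (median log2 -0.24). Insig1, which holds the sterol sensor in the endoplasmic reticulum and is itself an SREBP2 target, had 716, 727, 613 and 795 in irradiated mice, against 1023, 923, 1149.9 and 1254 in sham mice. The groups did not overlap (log2 -0.61 ± 0.0997, adjusted p = 0.00371). Sc5d, a late enzyme of the pathway, had 394, 388, 434 and 444 in irradiated mice, against 528, 538, 667 and 632 in sham mice (log2 -0.50 ± 0.103, adjusted p = 0.0149, ended without irradiated replicate 2 or sham replicate 3). The calls for Idi1 (-0.64 ± 0.156), Msmo1 (-0.59 ± 0.154) and Hmgcs1 (-0.39 ± 0.0978) were fragile. They ended without any 1 library other than sham replicate 2 or depleted replicate 3 or 4 for Idi1, any 1 library other than irradiated replicate 4 or sham replicate 2 for Msmo1 and any 1 library other than irradiated replicate 4, sham replicate 2 or depleted replicate 3 or 4 for Hmgcs1. The count was 1 without irradiated replicate 2 or sham replicate 3, 2 without irradiated replicate 1 or 3, sham replicate 1 or 4 or depleted replicate 1 or 2, 9 without sham replicate 2 and 0 with the leukocyte covariate. In epithelium Insig1 had a log2 change of 0.21 ± 0.104, and the difference was -0.82 ± 0.147 (adjusted p = 0.00952). Abca1, which exports cholesterol, rose by 0.38 ± 0.0876 (ended without irradiated replicate 2, 3 or 4 or sham replicate 1 or 3). Without sham replicate 2 this sterol efflux group had 3 calls in place of 1. Of 20 fatty acid and triglyceride genes 0 were called by limma or edgeR and 1 by DESeq2, with 3 at an unadjusted p under 0.05.

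Mitochondrially encoded genes had a median log2 change of -0.34 over 14 members, and 0 of 14 had a positive change, but 1 passed the test by limma and 6 by DESeq2. Without irradiated replicate 1 there were 3, and without sham replicate 4 there were 5. mt-Nd3 had 601, 544, 494 and 392 in irradiated mice, against 1131, 764, 913 and 604 in sham mice. Irradiated libraries lay below sham ones with a narrow gap (log2 -0.73 ± 0.177, adjusted p = 0.0446, ended without any 1 library other than irradiated replicate 1 or sham replicate 2 or 4). mt-Co1 had 25161 ± 2772 in irradiated mice and 27826 ± 2978 in sham mice (adjusted p = 0.435). The share of reads from mitochondrial genes was 0.589% to 0.763% in irradiated and 0.654% to 0.966% in sham libraries (exact two-sided permutation p = 0.114). Of 18 nuclear genes that handle mitochondrial RNA 1 fell, Fastkd2, with 70.1, 59.2, 65.1 and 54.9 in irradiated mice, against 109, 105, 91.9 and 99.8 in sham mice, and the groups did not overlap (log2 -0.70 ± 0.121, adjusted p = 0.0052). In the antioxidant group of 24 genes Hmox1, which degrades haem, rose, with 164, 194, 208 and 127 in irradiated mice, against 100.4, 121, 79.8 and 99.0 in sham mice (log2 0.78 ± 0.152, adjusted p = 0.012, ended without irradiated replicate 2 or sham replicate 3). Nfe2l2, the gene of Nrf2 itself (0.27 ± 0.0647, ended without any 1 library other than irradiated replicate 1, sham replicate 4 or depleted replicate 2, 3 or 4), and the metallothionein gene Mt2 (0.93 ± 0.215, ended without any 1 library other than depleted replicate 3 or 4) rose too. That count was 0 without irradiated replicate 2 or sham replicate 3 and 1 without irradiated replicate 3 or 4, sham replicate 1 or depleted replicate 1.

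Genes of the unfolded protein response gave 0 calls of 21 by limma, edgeR and DESeq2 (median log2 0.01, 1 at an unadjusted p under 0.05). Immediate early genes gave 0 of 22 by limma and edgeR and 1 by DESeq2 (4 at an unadjusted p under 0.05). Fos had 28427 ± 2441 in irradiated mice and 31907 ± 2725 in sham mice. Egr1 had 29152 ± 4619 in irradiated mice and 30319.8 ± 1318 in sham mice. Both are genes that digestion and sorting can induce, and their groups overlapped. Of 15 chaperones Hspa1b rose by 0.36 ± 0.095, a call that ended without any 1 library other than sham replicate 1.

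Markers of mesenchymal subtypes gave 3 calls in all, 2 adventitial and 1 mesothelial. The 18 alveolar fibroblast markers had a median log2 change of -0.39 with 0 positive, and 0 were called by limma or edgeR and 5 by DESeq2, although 13 reached an unadjusted p under 0.05. Their summed level was 242141, 256360.2, 286018 and 310866 in irradiated mice, against 330222, 282142, 371142 and 394429 in sham mice. Sham replicate 2 lay within the irradiated range, and without it 10 markers were called lower. Leaving out depleted replicate 4 gave 3, and leaving out irradiated replicate 4 or depleted replicate 2 or 3 gave 1. Npnt, a matrix gene of alveolar fibroblasts, had 15177, 13342, 15959.6 and 16143 in irradiated mice, against 19399.7, 15132, 21555 and 24159 in sham mice (log2 -0.39 ± 0.155, adjusted p = 0.169). Tcf21, their transcription factor, had 1533 ± 226 in irradiated mice and 2057 ± 464 in sham mice (adjusted p = 0.111). Of 18 adventitial markers Igfbp4 and Ccl11 rose and 0 fell (median 0.07). The 15 smooth muscle and 14 pericyte markers gave 0 calls by limma, edgeR or DESeq2 (3 and 1 at an unadjusted p under 0.05), with medians of 0.25 and -0.03. The mesothelial marker Msln had 241, 229.9, 167 and 319.6 in irradiated mice, against 279, 118, 64.6 and 64.0 in sham mice, and the mesothelial median was 0.81 over 12 genes with 1 call, Rspo1. There were 4 calls without sham replicate 1 and 2 without irradiated replicate 3.

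Markers of most cells that the gate should remove had positive medians. Of 12 neutrophil markers 4 rose (median log2 1.66), of 18 macrophage markers 6 rose (1.33), of 15 leukocyte markers 2 rose (1.09), of 11 lymphocyte markers 2 rose (0.97), of 21 endothelial markers 3 rose (1.06) and of 18 epithelial markers 1 rose (0.83), with 0 lower in each. The 7 erythroid and platelet markers had a median of 0.41 and 0 calls by limma, edgeR or DESeq2 (1 at an unadjusted p under 0.05). The neutrophil sum was 615 to 1308 in irradiated and 195 to 504 in sham libraries. The neutrophil genes S100a9 (log2 2.36 ± 0.525) and S100a8 (2.24 ± 0.423) were among the 15 largest rises of the naming rule. The S100a9 call ended without any 1 library other than sham replicate 2 or depleted replicate 1, 3 or 4. The S100a8 call ended without irradiated replicate 2. Ly6g, Camp, Elane and Mpo, also neutrophil genes, did not reach the filter. With anti-Ly6G, given to deplete neutrophils, 7 of the 12 tested neutrophil markers rose against sham (median log2 2.1). In that comparison 15.2% of all genes were called. Whether neutrophils were fewer in these depleted libraries was not tested, and the list was not taken as a count of neutrophils. Epithelial markers summed to 6003 to 11024 in irradiated and 3269 to 6372 in sham libraries. The endothelial sum was 3810.1 to 6225 in irradiated and 1686 to 3841 in sham libraries. The counts moved with single libraries. Leaving out irradiated replicate 2 gave 0 neutrophil, 1 macrophage, 0 leukocyte and 1 lymphocyte call, and leaving out sham replicate 3 gave 1, 1, 0 and 1 of these. Leaving out sham replicate 2 gave 6 leukocyte, 10 endothelial and 10 epithelial calls. Leaving out irradiated replicate 1, 3 or 4 or sham replicate 1 or 4 also moved at least 2 of these counts by over 1.5 times, and depleted replicate 1, 2 or 3 moved at least 1. Among these, the lymphatic receptor Flt4 had 84.6, 107, 78.3 and 82.9 in irradiated mice, against 32.5, 35.6, 29.3 and 25.8 in sham mice (log2 1.49 ± 0.186, adjusted p = 0.000282), and Lyve1 had 112, 268, 164 and 176 in irradiated mice, against 30.4, 55.4, 34.3 and 15.8 in sham mice (log2 2.43 ± 0.367, adjusted p = 0.00535). Both sets of libraries stood apart. Other leukocyte genes were also among the 15 largest rises of the naming rule. Fgr rose by 1.82 ± 0.35. Cyth4 rose by 1.89 ± 0.379 (ended without irradiated replicate 2 or sham replicate 1 or 3). Itgam rose by 1.77 ± 0.373 (ended without irradiated replicate 2 or sham replicate 1, 3 or 4). Csf2rb rose by 1.76 ± 0.357 (ended without irradiated replicate 1 or 2 or sham replicate 1, 3 or 4). Itgax, another of those 15, rose by 1.85 ± 0.452. Its call ended without any 1 library other than irradiated replicate 3, sham replicate 2 or depleted replicate 2. Igkc, the antibody light chain of plasma cells, had 117, 227, 121 and 126 in irradiated mice, against 41.6, 77.0, 56.5 and 34.1 in sham mice (log2 1.49 ± 0.28, adjusted p = 0.0129). The antibody gene Igha, also among the 15, rose by 2.35 ± 0.536 (ended without any 1 library other than sham replicate 1 or 2). Ear1, a ribonuclease of eosinophils and macrophages, had 23.7, 61.5, 21.4 and 36.6 in irradiated mice, against 9.13, 9.93, 4.04 and 5.82 in sham mice (log2 2.10 ± 0.362, adjusted p = 0.00495). Siglecf, a lectin of eosinophils and alveolar macrophages, rose by 1.91 ± 0.42 (ended without irradiated replicate 1 or 2 or sham replicate 3 or 4), and Marco, a marker of alveolar macrophages, was listed at 0 in each of the 4 sham libraries. The leukocyte covariate cannot separate these cells from the treatment, and their part in the other results was not otherwise tested.

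**Figure D4:**
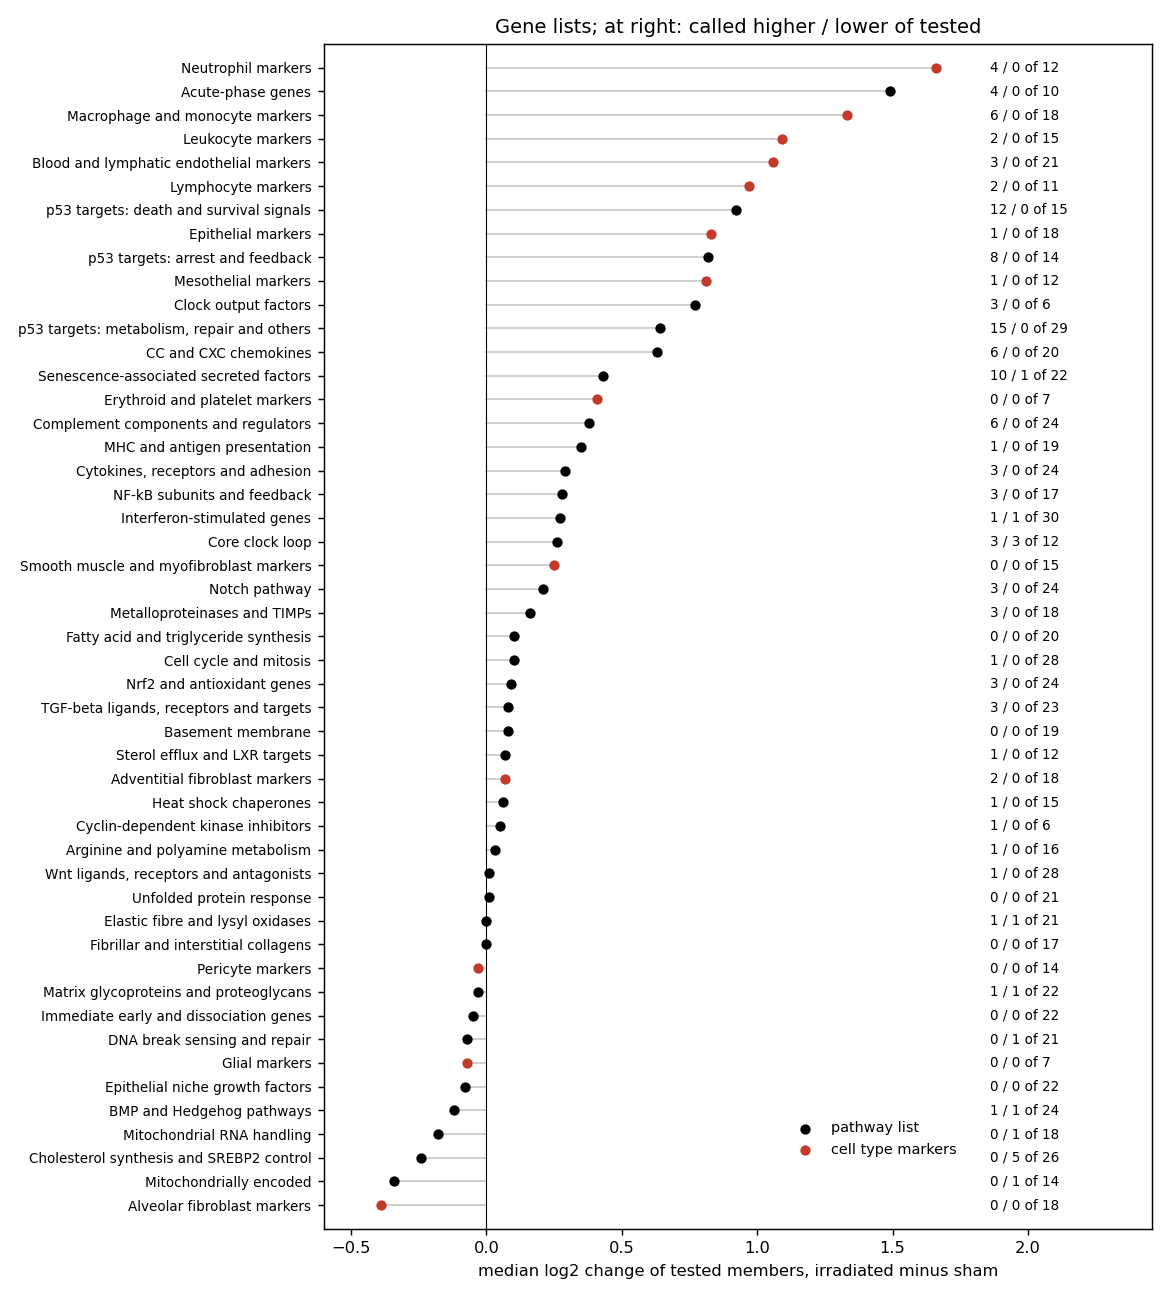
Median log2 change (irradiated minus sham) of the tested members of 49 gene lists, pathway lists in black and cell type markers in red, with the number called higher and lower of those tested at the right. Neutrophil and acute-phase genes have the highest medians (1.66 and 1.49), the 2 p53 lists on death and on metabolism have the highest numbers called higher (12 and 15), and alveolar fibroblast markers have the lowest median (-0.39).

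The largest rises of any kind, picked out after their values were seen, were in predicted gene models, with the gene Ces2e also among them. No annotation of repeats was used here. Gm10800 (ENSMUSG00000075014, chr2:98666547-98667301), a model in a region known for satellite repeats, had 3191, 6656, 2712 and 4886 in irradiated mice, against 4.06, 15.7, 9.09 and 7.48 in sham mice. The irradiated libraries lay far above the sham ones (log2 8.79 ± 0.443, adjusted p = 9e-06). Gm10718 (chr9) had 548, 1147, 439 and 905 in irradiated mice, against 6.09, 7.45, 0 and 1.66 in sham mice, and Gm26870, a long non-coding RNA, had 1019, 1994, 840.1 and 1459 in irradiated mice, against 19.3, 20.7, 18.2 and 4.16 in sham mice. Their log2 changes were 7.64 ± 0.664 and 6.44 ± 0.516. Gm42047, another non-coding RNA, had 1879, 3082, 1234 and 2902 in irradiated mice, against 89.3, 223, 194 and 156 in sham mice (log2 3.76 ± 0.335, adjusted p = 0.000275). These groups did not overlap. Copies of satellite repeats are near-identical, so reads over them cannot be placed with certainty on a single model. Whether the reads of these models came from RNA or from DNA in the preparation was not tested. In epithelium Gm10800 rose by 5.59 ± 0.406, and the difference between compartments was 3.20 ± 0.575 (adjusted p = 0.012). With anti-Ly6G the log2 change of Gm10800 against the same sham libraries was 9.21 ± 0.443. Gm42047, on chr8, rose by 3.97 ± 0.342 in epithelium, and its difference between compartments was -0.21 ± 0.483 (adjusted p = 0.894). Ces2e, a carboxylesterase gene, had 34.0, 60.3, 28.5 and 23.2 in irradiated mice, against 0, 4.14, 0 and 0.832 in sham mice. Its irradiated mean was at least 13.2-fold higher than the limit of 3 reads, a normalised count of 2.76 averaged over the sham libraries.

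**Figure D5:**
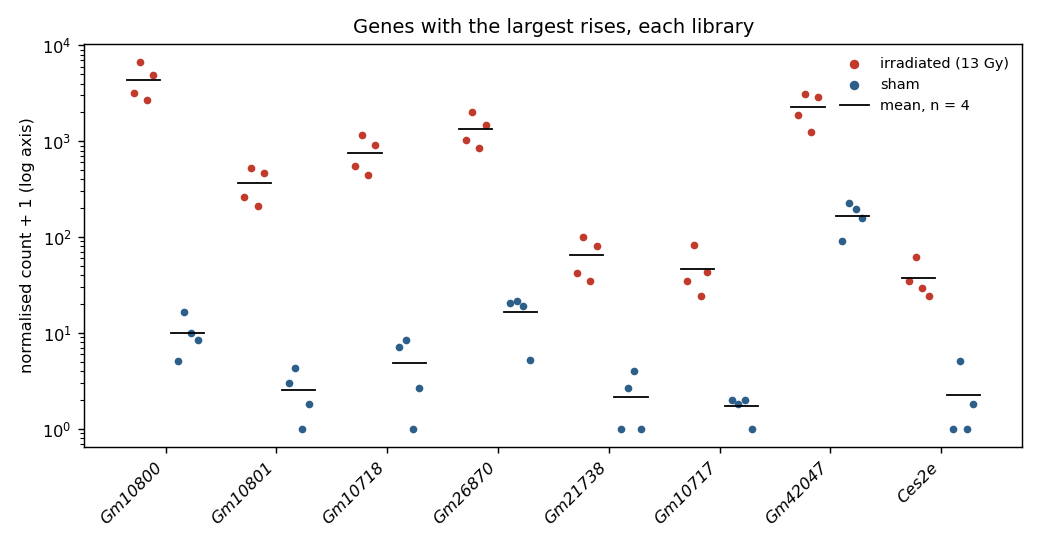
Normalised count + 1 (log axis) of 8 genes with the largest rises in the 4 irradiated (red) and 4 sham (blue) libraries, with means as bars. Gm21738 and Gm10717 are at or near 0 in sham mice, Gm10800 reaches 6656 in irradiated replicate 2.

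Named genes also fell. Btg3, an antiproliferative gene, had 20.6, 62.6, 18.3 and 30.5 in irradiated mice, against 63.9, 131, 195 and 113 in sham mice (log2 -1.96 ± 0.42, adjusted p = 0.0294). This call was lost without irradiated replicate 1, 3 or 4 or sham replicate 3 or 4. Ube2v2, a ubiquitin-conjugating protein of damage tolerance, had 127, 118, 112 and 113 in irradiated mice, against 189.7, 177, 199.9 and 163 in sham mice. The groups did not overlap (log2 -0.63 ± 0.0992, adjusted p = 0.00279). The phosphatase gene Ptpn5 had 88.7, 47.8, 74.2 and 54.9 in irradiated mice, against 156, 147, 151 and 131 in sham mice (log2 -1.17 ± 0.298, ended without any 1 library other than irradiated replicate 1 or depleted replicate 2, 3 or 4). C1qtnf3, a secreted protein, fell by 1.04 on the log2 scale (SE 0.244, ended without any 1 library other than irradiated replicate 1 or 3, sham replicate 2 or depleted replicate 3 or 4). Vma21, an assembly factor of the vacuolar proton pump, had 195, 156, 159 and 165 in irradiated mice, against 310.4, 228, 306 and 241 in sham mice (log2 -0.68 ± 0.132, adjusted p = 0.0116, ended without sham replicate 3). Of 328 tested genes named Zfp with a number, looked at after the values were seen, 3 were called higher and 10 lower. This is 3.96%, near the 3.8% of all genes tested. Their median log2 change was -0.13, with 75 positive. Among abundant genes, Plxdc2 (-0.54 ± 0.128, ended without irradiated replicate 1, 2 or 3 or sham replicate 1, 3 or 4) and Cst3 (-0.48 ± 0.116, ended without irradiated replicate 2 or 4, sham replicate 1, 3 or 4 or depleted replicate 1) fell.

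Irradiated mice given anti-Ly6G were also set against the same 4 sham libraries, so the 2 comparisons are not independent. There, 15.2% of genes were called. Of the p53 arrest, death and metabolism groups 9, 14 and 17 genes rose. Cdkn1a had a log2 change of 2.40 ± 0.121 and Mdm2 of 0.91 ± 0.0863. Per2 had 1.27 ± 0.132 and Arntl -0.44 ± 0.112. Saa3 had 6.94 ± 0.51 with anti-Ly6G and 2.21 ± 0.51 with IgG, and Ccl7 had 2.23 ± 0.134 with anti-Ly6G and 0.80 ± 0.134 with IgG.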

How the data were processed

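RNA of 24 sorted lung samples was sequenced, and the authors deposited 2 tables of signal (normalised gene counts, each library scaled by its own size factor), 1 per compartment. Per the submitters' processing notes, cutadapt 1.5, STAR 2.2.2a, SAMtools 1.8, RSEM 1.3.0 and DESeq2 were used with GRCm38. The annotation release is not given in the sources used here. Symbols and coordinates came from the GENCODE annotation of GRCm38, which held 48435 of 48795 identifiers. In each library 100% of values were whole multiples of 1 read within 0.001, so reads were recovered and depth is known. In mesenchymal sham replicate 3 and depleted replicate 4 the step was within 1% of 1. Floors cover counting error only, while the SE and SD values measure the spread between libraries.

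Log2(value + 1) was fitted with limma 3.58.1 (trend, robust, R 4.3.3) over the 12 mesenchymal libraries in 3 groups, after a filter of 10 in at least 4 libraries, with Benjamini-Hochberg adjustment over all genes tested and a threshold of 0.05. Fold changes on this scale understate those of low genes. The limma fit was also run on simulated counts in which 200 genes were changed by known folds. Every simulated gene had the same relative spread, and libraries had no shifts shared across genes. That run therefore cannot tell how the fit handles such shifts. Alternatives included edgeR 4.0.16 quasi-likelihood and DESeq2 1.42.0 on recovered reads, which called 582 and 1055 genes. Omission of both second replicates was added after the data were seen. Group levels of total reads were compared by exact permutation.

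Genes were named by a rule: the largest changes without overlap, up to 4 called and 2 abundant uncalled members per list, label markers and the most abundant called genes. Others, among them Mdm2, Ccng1, Zmat3, Bax, Bbc3, Phlda3, Fas, Tnfrsf10b, Apaf1, Ei24, Trp53inp1, Dglucy, Ephx1, Dcxr, Polk, Zfp365, Sulf2, Rps27l, Ano3, Pltp, Arntl, Clock, C2, Cxcl1, Cxcl16, Igfbp3, Hmgcs1, Mki67, Nr1d1, Dbp, Cry1, Il6, Ccl2, Lcn2, Npnt and Tcf21, were chosen after their values were seen. A few list members are not reported here. The comparison and all lists were chosen with earlier results of these data known.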

Additional observations from a re-analysis of the deposited data

Results flagged for a closer look

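Among genes named by the rule and called in mesenchyme, the response to irradiation differed between mesenchyme and epithelium for 5, besides Phlda3, Dglucy, Ccng1 and Bax above. This is by the interaction test (limma, difference of log2 changes, mesenchyme minus epithelium). Btg2, named by the rule but not called in mesenchyme, is given above. The difference was 2.06 for Ckap2, 1.56 for Inhbb, 1.14 for Krt8, 1.01 for Ass1 and -0.82 for Insig1. Of these, the Ass1 difference lost its call on leaving out any of 12 of 16 single libraries, named above, and the other 4 kept theirs. Krt8, a keratin of simple epithelium, had 41.9 ± 11.1 in irradiated mice and 22.2 ± 5.9 in sham mice (SD, n = 4 each), and its call in mesenchyme was lost without any 1 library other than irradiated replicate 3, sham replicate 1 or 2 or depleted replicate 3 or 4.

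In 8 of 214 groups of 4 libraries, 1 library stood far from the other 3. This is no more than the share of about 5% that chance gives. Irradiated replicate 2 stood high for Ccl9 (normalised count 70.6), Serpina3g (127.5), Hspa1b (915.0), the leukocyte gene Vav1 (56.9) and Igkc (226.5). Irradiated replicate 4 stood high for Ccl7 (222.0) and low for Mmp9 (28.1, where the other 3 had 40.7 to 42.3), and sham replicate 2 for Serpina3g (60.4). Irradiated replicate 2 also had the highest summed leukocyte markers of its group, 3345, and the part of this in these values was not tested.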

How the results depend on the processing

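Of 208 named genes 107 were called. Under the 24 alternatives none of the 107 changed direction, but in 611 gene and alternative pairs a call was lost. The number called, 631 (439 higher, 192 lower), was 1055 with DESeq2 (739 higher, 316 lower), 61 with the leukocyte covariate (59 and 2), and 396 without both second replicates (87 lower). It was 318 lower with library weights and 118 lower with no filter. Leaving out 1 library gave 184 to 1073 in all, 151 to 746 higher and 25 to 327 lower. The difference between compartments, 95 genes, ranged over 48 to 334. With the replicate number as a replicate block, 1048 genes were called (793 higher), and 211 for the difference between compartments. Deviations of same-numbered irradiated and sham libraries had correlations of -0.02, 0.17, -0.05 and 0.06. The highest was for replicate 2, which also had the highest leukocyte sum of each group. The labels do not say that the numbers pair libraries, and the main fit did not pair them. Between compartments, same-numbered libraries had correlations of 0.06, 0.12, 0.25 and 0.22 in irradiated and -0.03, 0.11, 0.10 and 0.00 in sham mice, not all over 0.1, and the labels do not say whether they share a mouse. The differences between compartments given for Phlda3, Dglucy, Ccng1, Bax, Btg2, Ckap2, Ass1, Insig1, Inhbb, Krt8 and Gm10800 kept their call with the block. Causes were not tested, apart from fewer samples where libraries were left out. Depth limits genes near 3 reads.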
